A study of Allium sativum with 18 samples.

Results

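Bulbs of the garlic (*Allium sativum*) variety Chalingzipisuan were compared under enlarging growth and before enlargement. They made up 6 of the 18 RNA-sequencing libraries of the series, 3 individuals under enlarging growth and 3 before enlargement, and were chosen by the variety and stage in the labels. Clove planting took place in October on a single research farm, enlarging bulbs were taken the following March, and bulbs that had not begun to enlarge were taken in February, so that stage and sampling date cannot be told apart. No treatment was applied, and nothing in the labels says that one plant was sampled at both stages. The other 12 libraries came from the varieties Ershuizao and Yuanjiangyangsuan, sampled in the same way, and are used here only for comparison. The labels give the tissue as leaf and the stage as that of a bulb, whereas the study describes bulbs. The deposited table names no gene, so that the tissue was not checked against marker genes. A gene's level is its FPKM value, the fragments on the gene per kilobase of its length and scaled to the size of the library. Of 57561 genes in the table, 29056 (50.5%) reached an FPKM value of 0.5 in 3 or more of the 6 libraries and were tested. A further 8942 genes were detected in at least 1 library but did not reach this level, and 19563 were listed at 0 in all 6. A gene that reached an FPKM value of 0.5 at 1 stage alone was tested only if all 3 bulbs of that stage reached it. Its lack of overlap between the stages was then fixed by the filter.

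A garlic bulb is a cluster of cloves, and each clove is an axillary bud that swells with stored carbohydrate. Bulbing in the related onion is set off by lengthening days, which act through the circadian clock and through mobile proteins of the FLOWERING LOCUS T (FT) family. Gibberellins, a class of growth hormones, oppose the formation of tubers in potato, and auxin restrains the outgrowth of buds in many plants.

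The 3 enlarging libraries held between 10504083 and 11924845 fragments on genes, against 11924715 to 14117986 in the 3 libraries before enlargement. Between 83.0% and 89.5% of the fragments of a library lay on genes, and the 10 most abundant genes took 5.22% to 6.67% of them. The counts of every pair of libraries differed by more than sampling noise (chi-square statistic per gene of at least 13.4), so that no pair was counted as 1 library. Enlarging replicate 3 stood apart from the other enlarging bulbs. On log2(FPKM + 0.5), enlarging replicates 1 and 2 correlated with each other at 0.964 across genes, whereas enlarging replicate 3 correlated with them at 0.820 and 0.848. The same library correlated with the 3 libraries before enlargement at 0.912, 0.927 and 0.933, and those correlated with each other at 0.936 to 0.958. These correlations run across genes, which are not independent replicates. Enlarging replicates 1 and 2 differed by more than 2-fold at 2274 genes (7.83%), and enlarging replicate 3 differed that much from them at 8102 and 7335 genes. From the libraries before enlargement, enlarging replicate 3 differed by more than 2-fold at 5423, 4342 and 4166 genes. Its fragment total, its share on genes and its number of detected genes (33078, against 33028 to 33596 in the other 5 libraries) lay within or close to the range of the others.

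**Figure D1:**
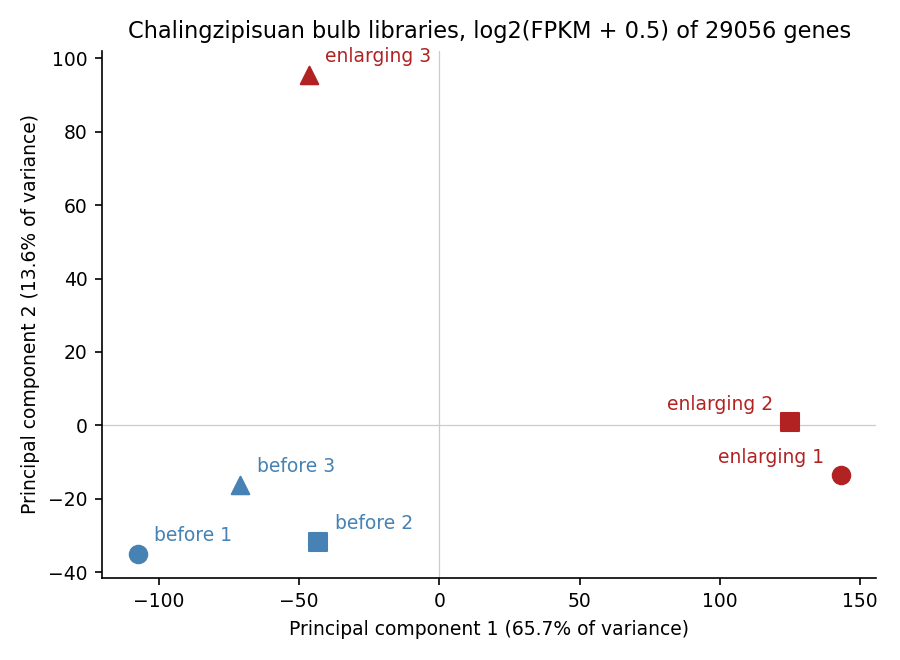
Principal components 1 and 2 of the 6 libraries, from log2(FPKM + 0.5) of all tested genes, with 1 point for each library. Enlarging replicates 1 and 2 lie at 143 and 125 on the first axis, whereas enlarging replicate 3 lies at -46.5, inside the span of the libraries before enlargement (-107.5 to -43.2), and is set off from all others on the second axis at 95.5.

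The first component, with 65.7% of the variance, thus placed enlarging replicate 3 among the bulbs before enlargement, and the second, with 13.6%, separated it from all other bulbs. The library before enlargement that lay farthest from the enlarging bulbs was replicate 1, which also held the most genes set off from the rest: 683 genes were more than 2-fold above all 5 other libraries in it, against 333, 150 and 270 in enlarging replicates 1, 2 and 3 and 50 and 100 in replicates 2 and 3 before enlargement. Why enlarging replicate 3 stood apart was not tested. Whether its sampling or its label plays a part cannot be told from these files, so that all values over 3 enlarging bulbs rest on its stage label as deposited. Results below are given with all 3 enlarging libraries and, for the main counts and most named genes, also without enlarging replicate 3. That library was singled out from its values, and leaving it out removes much of the spread between enlarging bulbs. P-values without it, from 2 enlarging bulbs against 3, may therefore be too small and are given as a description.

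With all 6 libraries, 1337 genes (4.6% of those tested) were upregulated and 2066 (7.11%) downregulated under enlarging growth, 3403 in all (11.7%). A gene was called at an unadjusted two-sided P under 0.05 from limma, which moderates the variance of each gene across all genes, and a difference of more than 2-fold. After Benjamini-Hochberg adjustment over all tested genes, 69 genes (0.237%) remained, 20 upregulated and 49 downregulated. The smallest adjusted p from limma was 0.0101. Upregulated genes had a median FPKM value of 10.2 under enlarging growth and 2.16 before enlargement, and downregulated genes one of 3.23 under enlarging growth and 13.8 before enlargement. In bulk tissue, fewer cells of a type and less RNA per cell cannot be told apart. The median log2 fold change was 1.59 for the upregulated genes and -1.77 for the downregulated genes, against -0.04 for all genes tested. Most calls were moderate in size, with 916 upregulated and 1211 downregulated genes between 2- and 4-fold, and only 26 upregulated but 97 downregulated genes beyond 16-fold. The values of the 2 stages did not overlap at 6885 genes (23.7%), with the enlarging libraries higher at 2770 and lower at 4115. These include genes whose lack of overlap was fixed by the filter. Of the called genes, 1035 upregulated and 1805 downregulated ones showed no overlap.

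Leaving out 1 library at a time moved these counts in both directions. Without enlarging replicate 3, the same test called 3247 genes upregulated (11.2%) and 3507 downregulated (12.1%), 6754 in all (23.2%), of which 5270 (18.1%) passed the adjusted threshold. Without enlarging replicate 1 the test called 835 and 1416 genes, and without enlarging replicate 2 it called 847 and 1367. Without replicate 1 before enlargement it called 862 upregulated and 1486 downregulated genes. With the adjusted threshold, limma called 4 genes without enlarging replicate 1 and 2 genes without replicate 1 before enlargement. It called 0 genes without enlarging replicate 2 or without replicate 2 or 3 before enlargement, where 2764, 4064 and 3728 genes had an unadjusted P under 0.05. With and without enlarging replicate 3, 1229 upregulated and 1976 downregulated genes were shared, which is 94.2% of the calls with the library and 47.5% of those without it. No gene was called in opposite directions, and all 69 genes that passed the adjusted threshold with the library also passed it without. Both fits share every library but enlarging replicate 3, so that their overlap is not independent support. A total of 198 genes (108 upregulated, 90 downregulated) were called only with enlarging replicate 3 in the fit.

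To place enlarging replicate 3 between the stages, its level was described at the 6754 genes called without it. On log2(FPKM + 0.5), a position of 0 was the mean of the 3 bulbs before enlargement and 1 the mean of enlarging replicates 1 and 2. The median position of enlarging replicate 3 was 0.19 (quartiles -0.07 and 0.44). It was 0.06 over the upregulated genes and 0.25 over the downregulated genes. The library lay beyond the level before enlargement in the opposite direction at 2081 genes (30.8%), between 0 and 0.5 at 3233 (47.9%), between 0.5 and 1 at 1048 (15.5%) and beyond the other enlarging bulbs at 392 (5.80%). Enlarging replicates 1 and 2 were each placed over the genes called without them, with 1 set to the mean of the other enlarging bulbs, replicate 3 included. Their median positions were 1.18 (2251 genes) and 1.13 (2214 genes), on other scales and gene sets than that of enlarging replicate 3. Both ends of the scale share the libraries before enlargement, so that these values are a description. Enlarging replicate 3 had therefore moved little at most of these genes, and less at genes that rose in the other enlarging bulbs than at genes that fell in them.

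**Figure D2:**
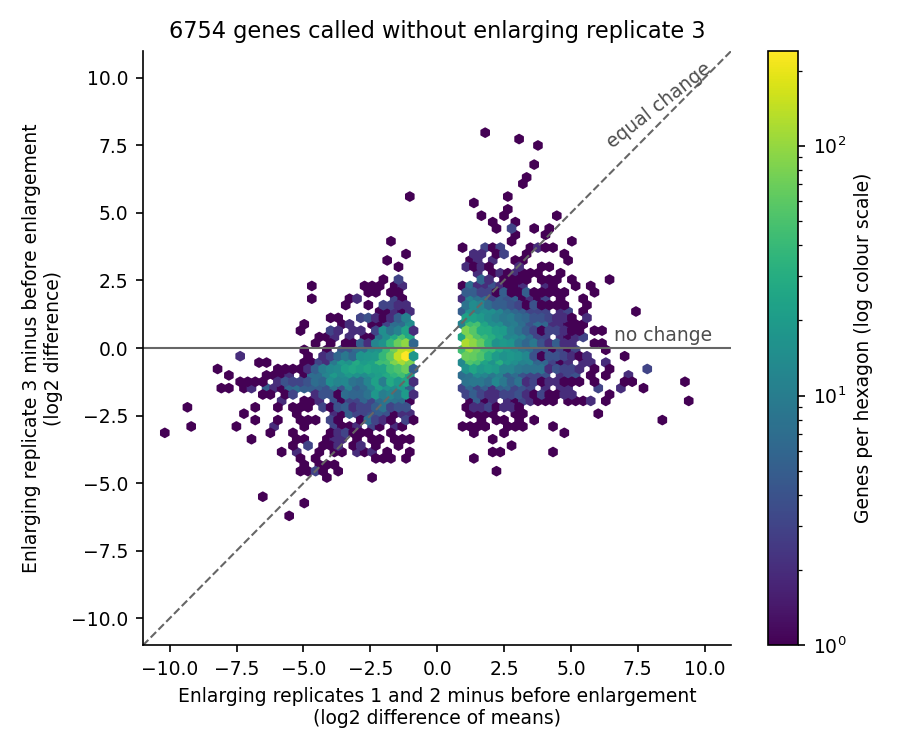
Change from the mean before enlargement in enlarging replicate 3 (vertical axis, log2) against the mean change in enlarging replicates 1 and 2 (horizontal axis, log2), over the 6754 genes called without enlarging replicate 3, with colour for the number of genes in a hexagon. Genes on the right spread about the line of no change, where the median position was 0.06, and genes on the left lie mostly below that line but above equal change, where it was 0.25.

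The 2 directions differed in how enlarging replicate 3 spread. Of the 3247 genes upregulated without it, the library lay within the range of the bulbs before enlargement at 1440 (44.3%), above that range at 1128 (34.7%) and below it at 679 (20.9%). Of the 3507 downregulated genes, it lay below that range at 2112 (60.2%), within it at 1137 (32.4%) and above it at 258 (7.36%). The strongest rises were the least shared. Among genes more than 16-fold higher in enlarging replicates 1 and 2, the median position of enlarging replicate 3 was -0.06 (223 genes) and 131 of them lay within the range before enlargement. For rises of 2- to 4-fold it was 0.11 (1922 genes). Among genes more than 16-fold lower, the median position was 0.27 and 17 lay within the range before enlargement, against 0.22 (2237 genes) for falls of 2- to 4-fold. Taking each enlarging bulb by itself, 192 genes (0.661% of those tested) were more than 2-fold above every bulb before enlargement in all 3 enlarging bulbs, and 1548 (5.33%) only in replicates 1 and 2. Only 34 genes were so in replicates 1 and 3 alone and 48 in replicates 2 and 3 alone. In a single enlarging bulb, 690 genes were so in replicate 1, 370 in replicate 2 and 337 in replicate 3. In the other direction 372 genes (1.28%) were more than 2-fold below every bulb before enlargement in all 3 enlarging bulbs and 1530 in replicates 1 and 2 only. Here 812 genes were so in replicate 1 alone, 444 in replicate 2 alone and 432 in replicate 3 alone.

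Genes called without any Chalingzipisuan library placed the bulbs in a similar way. Of 24788 genes tested in all 3 varieties, 943 (3.8%) were upregulated and 1551 (6.26%) downregulated under enlarging growth in both other varieties by the same rule. Of the 943 upregulated genes, 84.3% and 83.8% were more than 2-fold above the mean before enlargement in enlarging replicates 1 and 2 of Chalingzipisuan and 33.3% in enlarging replicate 3. Over all tested genes these shares were 13.5%, 12.3% and 4.81%. The bulbs before enlargement, each measured against the mean of the other 2, were as far above it at 1.06%, 28.3% and 9.44% of the 943 genes. Over all tested genes these shares were 6.11%, 5.19% and 3.29%. Leaving a bulb out of its own baseline widens its difference, so that these values and those of the enlarging bulbs are on unlike scales. The median log2 difference was 2.10, 2.05 and 0.54 in enlarging replicates 1, 2 and 3 and -0.70, 0.57 and 0.10 in replicates 1, 2 and 3 before enlargement. Of the 1551 downregulated genes, 90.7%, 88.0% and 43.4% were more than 2-fold lower in enlarging replicates 1, 2 and 3, against 14.8%, 13.2% and 7.34% of all tested genes. Here the medians were -2.42, -2.31 and -0.88 in the enlarging bulbs and 0.73, -0.41 and -0.34 before enlargement, so that enlarging replicate 3 lay below all bulbs before enlargement. The corresponding median log2 fold changes in the other 2 varieties were 1.79 and -2.18.

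**Figure D3:**
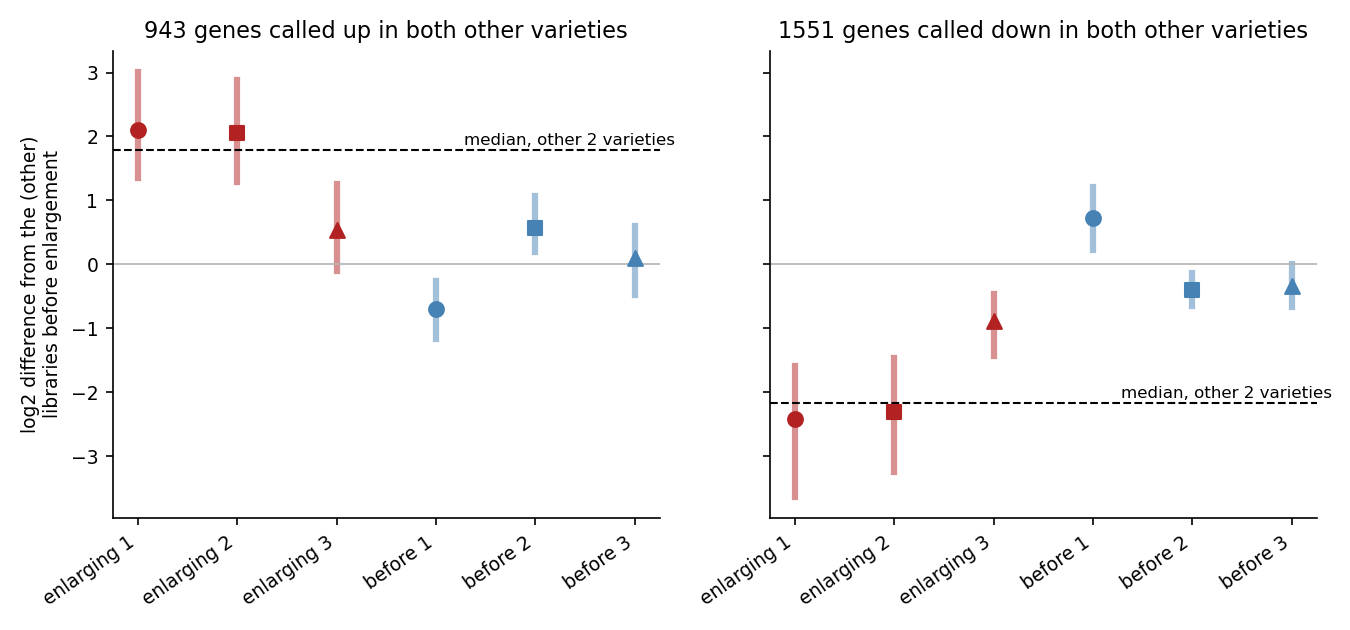
Median (point) and quartiles (bar) of the log2 difference from the mean before enlargement in each Chalingzipisuan library (for a bulb before enlargement, from the mean of the other 2), over 943 genes upregulated (left) and 1551 downregulated (right) in both other varieties. The dashed lines mark the medians of the other varieties (1.79 and -2.18), which enlarging replicates 1 and 2 pass and enlarging replicate 3, at 0.54 and -0.88, does not reach.

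Genes that moved in all 3 enlarging bulbs were ranked by the gap between the nearest libraries of both stages. The files, the paper's text and the labels give no function for the genes named in this and the next 3 paragraphs. The largest gap belonged to *Asa6G06627.1*, which had FPKM values of 0, 0 and 0.614 in enlarging bulbs, against 46.6, 49.98 and 44.9 before enlargement. It fell by 6.19 on the log2 scale (standard error 0.36, adjusted p = 0.0101 from limma), and enlarging replicate 3 had moved almost as far as the other 2. *Asa4G01043.1* was listed at 0 in all 3 enlarging bulbs and at 14.2, 13.2 and 8.78 before enlargement. It passed the filter through the bulbs before enlargement alone, which fixed its lack of overlap. A count of 0 allows up to 3 fragments in each library, and against that limit its mean was at least 37.3-fold lower under enlarging growth. *Asa2G02373.1* had 0.459, 0 and 0.595 in enlarging bulbs, against 16.2, 25.9 and 30.5 before enlargement. *Asa5G05475.1* had 0.543, 0.301 and 0.846 in enlarging bulbs, against 19.1, 32.3 and 29.6 before enlargement, and both passed the adjusted threshold (limma adjusted p = 0.0197 and 0.0101). The separation of the stages at these 4 genes follows from the ranking, so that their adjusted p-values are a description.

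Among the rises, *Asa2G01646.1* showed the largest gap, with 21.3, 22.8 and 31.5 in enlarging bulbs, against 0.275, 1.96 and 0.0469 before enlargement, and rose by 4.64 ± 0.56 on the log2 scale (± standard error, adjusted p = 0.0465 from limma). *Asa5G05404.1* had 13.2, 8.93 and 11.002 in enlarging bulbs, against 0.392, 0.773 and 0 before enlargement (limma adjusted p = 0.0404). At both genes enlarging replicate 3 was as high as the other enlarging bulbs. *Asa1G03107.1* had 13.9, 10.5 and 101 in enlarging bulbs, against 0.475, 0.803 and 0.243 before enlargement. *Asa5G04906.1* had 5.29, 11.4 and 107.8 in enlarging bulbs, against 0.272, 0 and 0 before enlargement, and passed the filter through the enlarging bulbs alone. These 2 genes were therefore highest in enlarging replicate 3, and with log2 fold changes of 4.69 and 5.08 they were called but did not pass the adjusted threshold (limma adjusted p = 0.0995 and 0.123). All 8 genes kept their call with each library left out in turn, but they were picked for their gap in these same libraries. The largest falls in the mean, ranked among called genes without overlap between the stages, were partial in enlarging replicate 3. *Asa2G00397.1* had 0, 0.463 and 98.9 in enlarging bulbs, against 530, 1224 and 1080 before enlargement, a log2 fold change of -7.93 with all libraries and -10.32 without enlarging replicate 3. *Asa1G04159.1* had 1.32, 0.0873 and 88.4 in enlarging bulbs, against 746, 769 and 501 before enlargement, and *Asa5G00519.1* had 1.80, 0 and 159.6, against 1142, 543 and 704 before enlargement. At all 3 genes enlarging replicate 3 lay below every bulb before enlargement and far above the other enlarging bulbs. The rise of *Asa7G00848.1*, with 55.6, 77.7 and 3.70 in enlarging bulbs against 0, 0.309 and 0.374 before enlargement, had the same partial form. This gene too passed the filter through the enlarging bulbs alone.

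**Figure D4:**
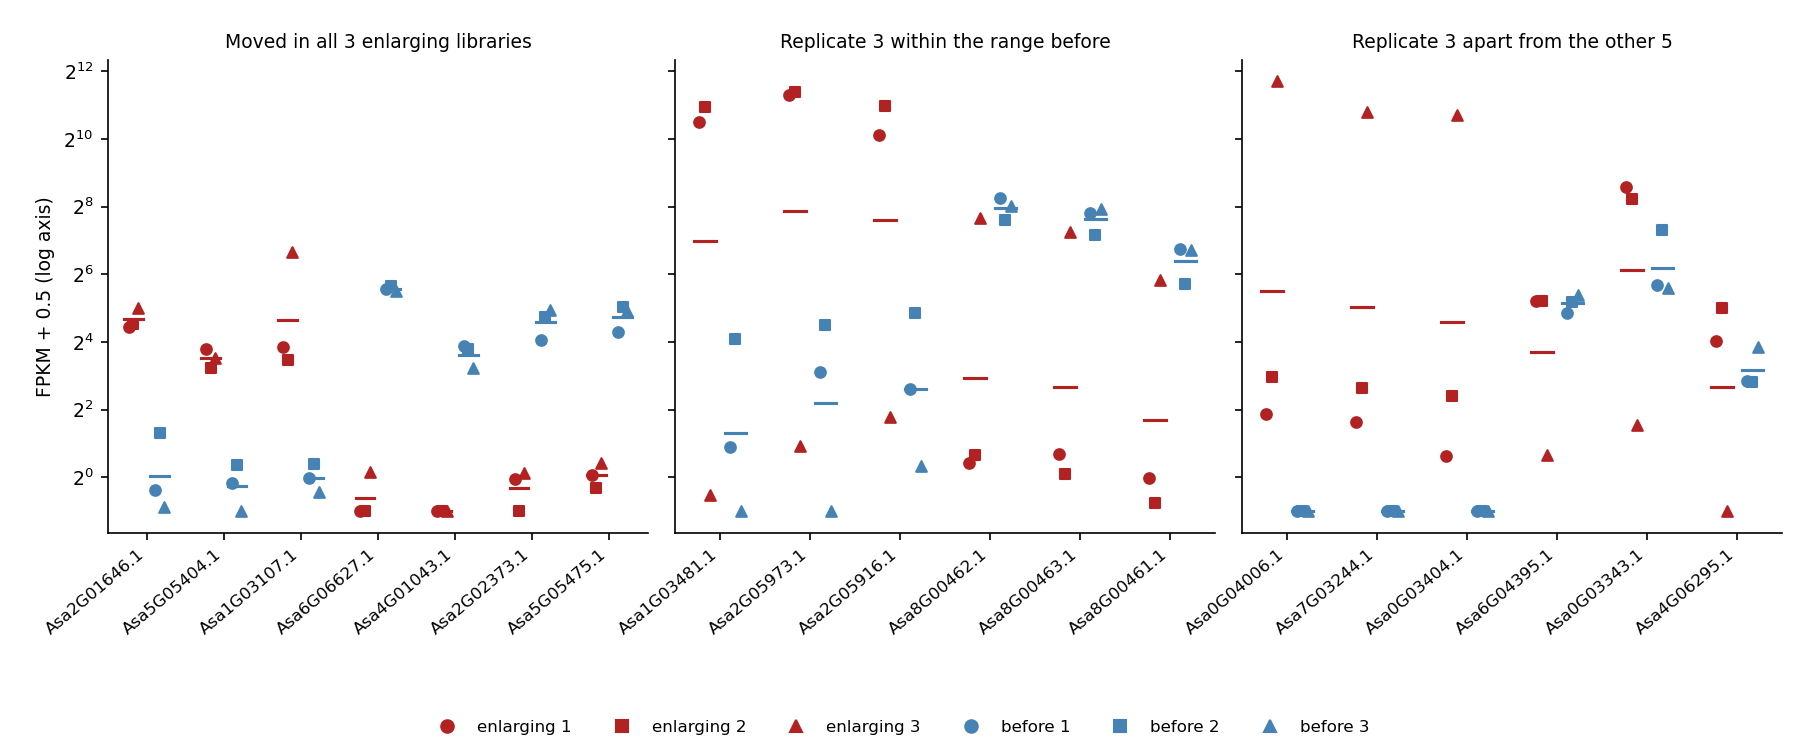
FPKM + 0.5 on a log axis for single genes in each library, with horizontal bars for the mean on the log scale of each stage. The left panel holds genes that separate the stages in all bulbs, as *Asa6G06627.1* with at most 0.614 in enlarging bulbs against at least 44.9 before enlargement. The middle panel holds genes at which enlarging replicate 3 lies in the range before enlargement, and the right panel genes at which it lies above or below all 5 other libraries. The genes of each panel were chosen for its pattern.

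Other genes separated enlarging replicates 1 and 2 from all remaining libraries. They were picked from genes called without enlarging replicate 3 at which that library lay within the range before enlargement. Both traits therefore follow from the choice, and the values below are a description. *Asa2G05973.1* had 2533, 2664 and 1.40 in enlarging bulbs, against 8.09, 22.0 and 0 before enlargement. *Asa1G03481.1* had 1452, 1964 and 0.201, against 1.34, 16.3 and 0 before enlargement. *Asa2G05916.1* had 1097, 1987 and 2.93, against 5.58, 28.5 and 0.762 before enlargement. With 3 enlarging bulbs none of these genes was called, and without enlarging replicate 3 all were, at log2 fold changes of 9.14, 9.40 and 7.93. The falls of this kind carried the consecutive identifiers *Asa8G00461.1*, *Asa8G00462.1* and *Asa8G00463.1*. *Asa8G00462.1* had 0.840, 1.09 and 203.5 in enlarging bulbs, against 305, 194 and 258 before enlargement. *Asa8G00463.1* had 1.10, 0.565 and 151.8, against 225, 143 and 241 before enlargement, and *Asa8G00461.1* had 0.479, 0.0885 and 56.4, against 107, 51.7 and 104 before enlargement. At all 3 genes enlarging replicate 3 lay within the range of the bulbs before enlargement. They were called with all 6 libraries (log2 fold changes of -5.04, -4.96 and -4.71 for *Asa8G00462.1*, *Asa8G00463.1* and *Asa8G00461.1*), but the call was lost when any library except enlarging replicate 3 was left out, with values from -5.21 to -3.49 for the 3 genes. Without enlarging replicate 3 the log2 fold changes were -7.41, -7.25 and -6.78. Nearby genes may share reads, and how the authors' counting treated such reads is not given in the sources used here.

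Enlarging replicate 3 also held genes that were high or low in it alone, of 29056 tested 270 more than 2-fold above and 340 more than 2-fold below all 5 other libraries. Such genes were not particular to it. Above all others there were 333 and 150 in enlarging replicates 1 and 2 and 683, 50 and 100 in replicates 1, 2 and 3 before enlargement. Below all others there were 343 and 135, and 420, 59 and 129. The most extreme were *Asa0G04006.1*, *Asa0G03404.1* and *Asa7G03244.1*, all listed at 0 in the 3 bulbs before enlargement. They passed the filter through the enlarging bulbs alone, so that the stages could not overlap and their calls are a description. *Asa0G04006.1* had 3.12, 7.36 and 3315 in enlarging bulbs, *Asa0G03404.1* had 1.04, 4.80 and 1673, and *Asa7G03244.1* had 2.60, 5.76 and 1756. Small amounts were thus present in the other enlarging bulbs as well, and all 3 genes were called when enlarging replicate 3 was left out, at log2 fold changes of 3.41, 2.51 and 3.14. With the library, *Asa0G03404.1* was not called, and the calls of *Asa0G04006.1* (6.51) and *Asa7G03244.1* (6.02) were lost without any 1 of the 3 bulbs before enlargement. Such log2 values depend on the pseudocount of 0.5, since one stage is at 0. Against the limit of 3 fragments per library before enlargement, the mean of *Asa0G04006.1* was at least 2640-fold higher under enlarging growth, a mean that enlarging replicate 3 carried. The recovered length of each of the 3 genes was 465 bases. They may be near-identical copies among which reads could be divided, so that the level of any 1 of them is uncertain.

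The other varieties each held a single enlarging bulb with high levels of the same genes. *Asa0G04006.1* had FPKM values of 12.8, 5609 and 3.10 in enlarging bulbs of Ershuizao and of 642, 49.8 and 8.42 in those of Yuanjiangyangsuan. *Asa7G03244.1* had 8.999, 3182 and 0.326 in Ershuizao and 1443, 47.5 and 2.36 in Yuanjiangyangsuan. This extended to the wider set: of the 270 genes above all others in enlarging replicate 3 of Chalingzipisuan, enlarging replicate 2 was the highest enlarging bulb of Ershuizao at 74.4%, against 37.97% of all tested genes. Of the 259 of them detected in enlarging bulbs of Yuanjiangyangsuan, replicate 1 was the highest at 81.9%, against 38.6% of all tested genes. Among the 340 genes below all others in the Chalingzipisuan library, the same bulbs were the lowest at 76.8% in Ershuizao and, of 318 detected, at 75.5% in Yuanjiangyangsuan, against 36.8% and 36.9% of all tested genes. This comparison was chosen after the values were seen, and its genes are not independent of one another. The genes lowest in enlarging replicate 3 included *Asa6G04395.1*, with 36.7, 36.2 and 1.07 in enlarging bulbs, against 28.6, 35.4 and 41.1 before enlargement. They also included *Asa0G03343.1*, with 380, 299 and 2.44, against 50.5, 158 and 47.7 before enlargement, and *Asa4G06295.1*, with 15.9, 31.2 and 0, against 6.66, 6.51 and 13.9 before enlargement. For the last 2 genes, enlarging replicate 3 turned the direction of the stage difference: the log2 fold change was -0.07 and -0.49 with it and 2.21 and 1.34, called, without it.

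The most abundant genes were affected in the same uneven way. *Asa4G02790.1*, with the highest mean, had 10957, 10403 and 17962 in enlarging bulbs, against 8911, 16833 and 18797 before enlargement, and the stages overlapped. *Asa8G05110.1* had 8968, 7307 and 9377 in enlarging bulbs, against 3508, 7713 and 7627 before enlargement, and the stages overlapped here too. *Asa7G00373.1* was lower in every enlarging bulb, at 3485, 3972 and 5382, against 7699, 6967 and 6777 before enlargement, a log2 fold change of -0.76 that stayed under 2-fold. *Asa3G01406.1* had 12794, 13631 and 1459 in enlarging bulbs, against 1899, 2318 and 1699 before enlargement. *Asa3G04922.1* had 10668, 10833 and 1733, against 955, 3844 and 4974 before enlargement. In enlarging replicate 3, *Asa3G01406.1* lay below all bulbs before enlargement and *Asa3G04922.1* within their range. Both were called without that library, at log2 fold changes of 2.76 and 2.03.

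A small number of genes were detected at 1 stage alone. Before enlargement, 18 genes were listed at 0 in all 3 bulbs and had an FPKM value of at least 0.5 in all 3 enlarging bulbs. Besides the 3 genes of 465 bases, they included *Asa7G01452.1*, with 7.32, 10.8 and 0.659 in enlarging bulbs, at least 33.9-fold higher against the limit of 3 fragments per library, and *Asa0G00679.1*, with 5.67, 8.50 and 2.39, at least 14.8-fold higher. The opposite held for 21 genes, among them *Asa4G01043.1* and *Asa5G00207.1*. The last was listed at 0 in the enlarging bulbs and at 23.4, 6.21 and 6.199 before enlargement, at least 11.97-fold lower. *Asa7G01452.1*, *Asa0G00679.1* and *Asa5G00207.1* were chosen after their values were seen. Most of these genes rested on few fragments, and a value of 0 says only that they were not detectable at this depth.

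The comparison also bears on genes that the study named as homologs of regulators of day-length sensing, gibberellin and bud outgrowth. The gibberellin genes include further ones listed for the study's model that its text does not name. The study chose part of these genes on the 18 libraries used here, so that their counts are not independent evidence of a direction. The 5 photoperiod and flowering genes are those named in the study's text, while it reported many more photoperiod homologs as changed. All 5 were tested, 1 was upregulated and 1 downregulated, where 4.6% and 7.11% of all tested genes were called in these directions. Without enlarging replicate 3 these numbers were 3 and 1, where the shares of all tested genes were 11.2% and 12.1%. Their median log2 fold change was 1.25, against -0.04 for all genes, and without enlarging replicate 3 it was 1.75, against -0.05. None of the 5, of the 9 gibberellin genes or of the 5 bud outgrowth genes passed the adjusted threshold with limma and all 6 libraries, whereas 3, 2 and 1 of them passed it without enlarging replicate 3, where 18.1% of all tested genes did. The CDF2 homolog *Asa8G01471.1* belongs to a family of DOF transcription factors that delay flowering in Arabidopsis by repressing CONSTANS. It had 13.5, 12.7 and 8.48 in enlarging bulbs, against 30.9, 30.8 and 24.7 before enlargement, and was lower in every enlarging bulb, including replicate 3. The log2 fold change was -1.30 ± 0.23 (± standard error, adjusted p = 0.0968 from limma), and the call held with each library left out. It was -1.10 (limma adjusted p = 0.00819) without enlarging replicate 3. *Asa6G01159.1* and *Asa2G04763.1* resemble TGA4, a bZIP transcription factor of Arabidopsis. *Asa6G01159.1* had 1.88, 1.32 and 1.23 in enlarging bulbs, against 0.0877, 0 and 0 before enlargement, at 1.89 ± 0.29 on the log2 scale (± standard error, adjusted p = 0.0737 from limma). It passed the filter through the enlarging bulbs alone, so that the stages could not overlap and its p-values are a description. Its log2 value was 1.98 (limma adjusted p = 0.01002) without enlarging replicate 3. The bulbs before enlargement lay under the limit of 3 fragments per library, and the log2 value depends on the pseudocount, with 3.65 at 0.1 and 1.26 at 1. *Asa2G04763.1* had 25.1, 23.0 and 1.59 in enlarging bulbs, against 3.22, 7.89 and 2.89 before enlargement. Enlarging replicate 3 was the lowest of all 6 libraries at this gene, and the rise was called only without it, at 2.38 on the log2 scale (adjusted p = 0.00937 from limma) against 1.19 with it.

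*Asa2G00681.1* resembles *ELF4*, a component of the evening complex of the Arabidopsis clock. It had 29.5, 19.8 and 10.6 in enlarging bulbs, against 2.50, 12.5 and 9.61 before enlargement. Enlarging replicate 3 lay inside the range before enlargement, and the gene was not called (1.37 ± 0.63 on the log2 scale, adjusted p = 0.302 from limma). It was called without enlarging replicate 3 (1.75) or without replicate 2 before enlargement (1.78), and without replicate 1 before enlargement the value was 0.72. The FT-like gene *Asa6G06199.1*, an ortholog of onion *FT2*, had 10.97, 6.34 and 10.3 in enlarging bulbs, against 0.352, 8.60 and 7.57 before enlargement. The difference rested on replicate 1 before enlargement: the log2 fold change was 1.25 with all libraries and 0.14 without that bulb, and the gene was not called in any of these fits.

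**Figure D5:**
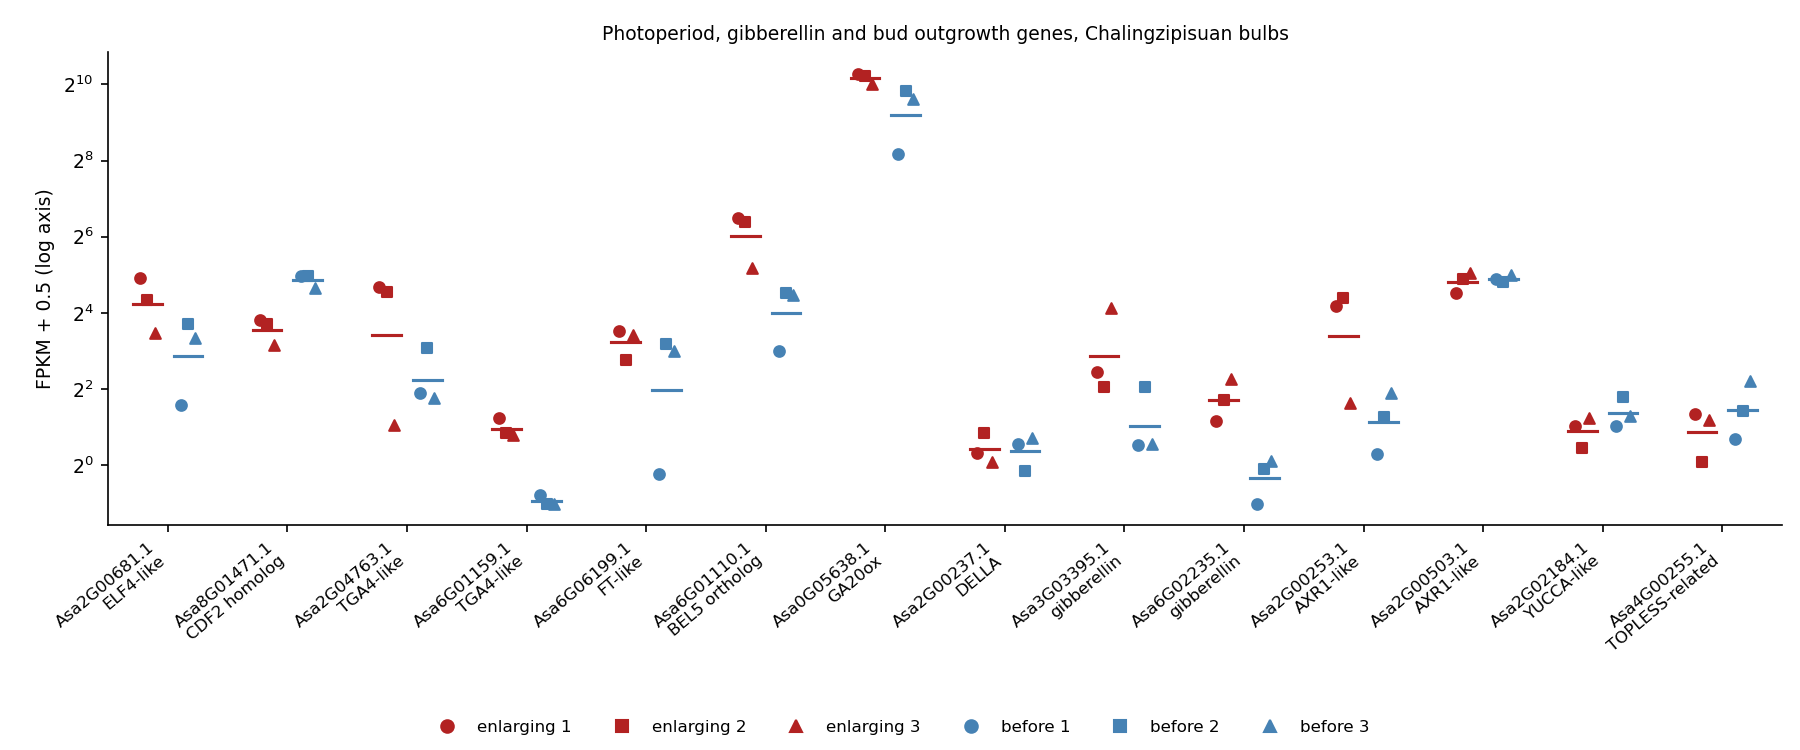
FPKM + 0.5 on a log axis for genes named in the study as homologs of photoperiod, gibberellin and bud outgrowth regulators, by library, with bars for the stage mean on the log scale. *Asa3G03395.1* and *Asa6G02235.1* are further gibberellin genes listed for its model, which its text does not name. The stages are separated at *Asa8G01471.1*, *Asa6G01110.1*, *Asa6G02235.1* and *Asa0G05638.1*, and at *Asa6G01159.1*, where the filter fixed it. At *Asa3G03395.1* they barely are, with 3.639 in enlarging replicate 2 against 3.634 in replicate 2 before enlargement. Enlarging replicate 3 lies below all bulbs before enlargement at *Asa2G04763.1* and among them at *Asa2G00253.1*. Both AXR1-like labels are shown because the study gives both identifiers for that gene.

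Of the 9 gibberellin genes, 7 were tested, 3 were upregulated and 0 downregulated, against 4.6% and 7.11% of all tested genes, with a median log2 fold change of 0.96, against -0.04 for all genes. Without enlarging replicate 3, 2 were upregulated, against 11.2% of all tested genes, and the median was 1.20, against -0.05 for all genes. The ortholog of potato *BEL5*, *Asa6G01110.1*, encodes a homeodomain protein whose potato counterpart promotes tuber formation as a mobile transcript. It had 89.6, 83.5 and 35.5 in enlarging bulbs, against 7.44, 22.5 and 21.6 before enlargement. Every enlarging bulb was above every bulb before enlargement, with enlarging replicate 3 about midway between the stages on the log scale (position 0.48). The log2 fold change was 2.03 ± 0.53 (± standard error, adjusted p = 0.171 from limma) with all libraries and 2.45 (limma adjusted p = 0.0124) without enlarging replicate 3, and it lay between 1.52 and 2.45 with each library left out. *Asa6G02235.1* had 1.76, 2.78 and 4.34 in enlarging bulbs, against 0, 0.435 and 0.593 before enlargement, a log2 fold change of 2.04 that was called in each of these fits and was 1.77 (limma adjusted p = 0.0354) without enlarging replicate 3. *Asa3G03395.1* had 4.92, 3.64 and 17.04 in enlarging bulbs, against 0.947, 3.63 and 0.969 before enlargement. Its call at 1.83 was lost without enlarging replicate 3 (1.20) and without replicate 1 (1.57) or 3 (1.58) before enlargement. These 2 genes were listed as gibberellin genes of the study's model, but its text does not name them and no further role is given. They were highest in enlarging replicate 3.

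The gibberellin 20-oxidase homolog *Asa0G05638.1*, named for an enzyme of gibberellin synthesis, was abundant, with 1235, 1200 and 1020 in enlarging bulbs, against 287, 907 and 784 before enlargement. The study instead describes GA20ox as breaking down active gibberellins, and the role of this gene was not checked here. The stages did not overlap, but the log2 fold change of 0.96 (limma adjusted p = 0.304) missed both thresholds. Without replicate 2 before enlargement it was 1.27 and called, and without replicate 1 before enlargement it was 0.44. Without enlarging replicate 3 it was 1.05 and not called. The other homolog, *Asa4G02474.1*, was listed at 0 in all enlarging bulbs and in 2 of the 3 bulbs before enlargement, and was not tested. *Asa2G00237.1*, homologous to the rice DELLA repressor *SLR1*, had 0.752, 1.30 and 0.569 in enlarging bulbs, against 0.977, 0.408 and 1.15 before enlargement, a difference far inside the spread of either stage. *Asa5G04732.1* had 12.8, 27.2 and 0 in enlarging bulbs and was listed at 0 in all 3 bulbs before enlargement, so that it was detected in 2 libraries and not tested. *Asa6G01479.1* had 5.24, 0.744 and 0 in enlarging bulbs, against 0.558, 1.61 and 0.190 before enlargement, and *Asa3G02513.1* had 2.01, 1.10 and 0.514, against 2.52, 2.97 and 1.76 before enlargement. Neither was called with all libraries, and *Asa3G02513.1* was called without enlarging replicate 1 (log2 fold change -1.17, against -0.85) and had -0.52 without enlarging replicate 3.

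Of the 5 bud outgrowth genes, 4 were tested, 1 was upregulated and 0 downregulated, against 4.6% and 7.11% of all tested genes, with a median log2 fold change of -0.27, against -0.04 for all genes. Without enlarging replicate 3 the median was -0.42, against -0.05 for all genes. The study gives both *Asa2G00253.1* and *Asa2G00503.1* for a gene resembling *AXR1*, which in Arabidopsis encodes a part of the enzyme that activates a ubiquitin-like protein needed for auxin signalling. Their values differed. *Asa2G00253.1* had 17.7, 20.4 and 2.62 in enlarging bulbs, against 0.723, 1.90 and 3.21 before enlargement. It was called at 2.26 ± 0.81 on the log2 scale (± standard error, adjusted p = 0.229 from limma) although enlarging replicate 3 lay within the range before enlargement. The call was lost without enlarging replicate 1 (1.86) or 2 (1.77) or without replicate 1 (1.83) or 2 (2.31) before enlargement, and without enlarging replicate 3 the log2 fold change was 3.14 (limma adjusted p = 0.00564). *Asa2G00503.1* had 22.5, 28.9 and 32.7 in enlarging bulbs, against 29.02, 27.7 and 31.4 before enlargement, which was -0.08 ± 0.19 on the log2 scale. The TB1-like gene *Asa2G00245.1* belongs to a family of TCP transcription factors that hold back axillary buds in maize, rice and Arabidopsis. It had 0, 0.387 and 1.99 in enlarging bulbs and was listed at 0 in the 3 bulbs before enlargement, too low to be tested. The YUCCA-like gene *Asa2G02184.1*, named for an enzyme of auxin synthesis, had 1.55, 0.861 and 1.88 in enlarging bulbs, against 1.56, 2.97 and 1.96 before enlargement. *Asa4G00255.1*, related to the co-repressor TOPLESS, had 2.05, 0.556 and 1.77, against 1.11, 2.19 and 4.17 before enlargement. The stages overlapped at both genes and neither was called.

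Finally, the stage effect in Chalingzipisuan was tested against the mean of those in Ershuizao and Yuanjiangyangsuan over all 18 libraries. It differed at 16 of 33681 genes (0.0475%) by limma at an adjusted P under 0.05, 11 in the positive direction (a higher log2 fold change in Chalingzipisuan) and 5 in the negative. At an unadjusted P under 0.05 there were 2755 genes. Without enlarging replicate 3 of Chalingzipisuan, 397 genes differed in the positive and 106 in the negative direction, 1.49% of those tested, and the 16 were among them. Without any 1 of the other 5 Chalingzipisuan libraries the count was 6 (enlarging replicate 1), 5 (enlarging replicate 2), 25 (replicate 1 before enlargement) or 3 (replicate 2 and likewise replicate 3 before enlargement). The largest positive difference among genes with a mean FPKM value of at least 5 was that of *Asa7G01379.1*. It had 30.2, 23.0 and 46.3 in enlarging bulbs of Chalingzipisuan, against 13.3, 10.9 and 15.9 before enlargement, and was higher in all 3. In Ershuizao it had 11.1, 17.5 and 11.03 in enlarging bulbs, against 78.0, 36.1 and 44.1 before enlargement, and in Yuanjiangyangsuan 12.6, 18.2 and 10.6, against 73.5, 69.9 and 100.4 before enlargement. The log2 fold change was thus 1.23 in Chalingzipisuan and -1.91 and -2.53 in the other varieties, a difference of 3.46 (standard error 0.38, limma adjusted p = 0.00334). Without enlarging replicate 3 the log2 fold change of *Asa7G01379.1* in Chalingzipisuan was 0.97, under 2-fold. *Asa7G01587.1* was lower in all 3 enlarging bulbs of Chalingzipisuan, at 74.2, 59.3 and 65.1 against 158, 107 and 139 before enlargement. It was higher in all enlarging bulbs of Ershuizao, at 144, 150 and 167 against 46.1, 19.9 and 23.9 before enlargement, and in Yuanjiangyangsuan its log2 fold change was -0.45. In Chalingzipisuan the log2 fold change of this gene was -1.01 with all libraries and -0.998 without enlarging replicate 3. *Asa8G04463.1* had 13.0, 14.5 and 13.3 in enlarging bulbs of Chalingzipisuan, against 2.14, 3.75 and 7.04 before enlargement, while its log2 fold change was -0.44 in Ershuizao and -0.92 in Yuanjiangyangsuan. *Asa3G02483.1* had 16.6, 14.1 and 9.26, against 4.91, 4.50 and 6.17 before enlargement, with -1.19 in Ershuizao and 0.24 in Yuanjiangyangsuan. The CDF2 homolog *Asa8G01471.1*, which fell in Chalingzipisuan, had a log2 fold change of 2.196 in Ershuizao and -0.64 in Yuanjiangyangsuan. Its difference of -2.08 had an adjusted p of 0.107 with limma and did not pass.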

How the data were processed

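RNA of 18 garlic bulb libraries was sequenced as paired-end reads. After trimming, the authors mapped the reads to the garlic genome with hisat2 at default settings, and deposited FPKM values for each gene in every individual library. Which program counted the fragments is not given in the sources used here. Neither genome nor annotation was used, so that positions and sequences of genes are not reported.

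Stages were compared with limma 3.58.1 (R 4.3.3) on log2(FPKM + 0.5), with trend and robust moderation. The study's thresholds were kept, and its count test was not run, since the deposited values are FPKM. Exact two-sided permutation tests of 3 against 3 values cannot give a P below 0.1. P-values measure the spread between 3 individuals per stage, or between the individuals left where a library was omitted. Whole fragments were recovered from the steps of the FPKM values for all 39933 genes above 0 in at least 2 libraries (99.7% of values above 0, largest distance 0.000161 from a whole number, tolerance 0.003) and gave depths, gene lengths and an alternative test with limma voom. Of the recovered lengths, 94.3% were multiples of 3. The limit set for a gene at 0, 3 fragments in each library, covers only counting error. Scripts were tested on simulated data. Recovery and plots used matplotlib 3.10.9, pandas 2.3.3, numpy 2.4.6 and Python 3.11.15.

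Genes named were those the study names with a homology, further gibberellin genes of its model, and, by rule, the 4 rises and 4 falls with the largest fold change among called genes without overlap, the 4 rises and 4 falls with the largest gap between stages, the 3 rises and 3 falls in enlarging replicates 1 and 2 that enlarging replicate 3 did not show, the 3 genes most above and most below all others in enlarging replicate 3, the 5 most abundant genes, and at most 3 per direction that differed from the other varieties, with a mean FPKM of at least 5 where genes were ranked by change. Genes and lists were chosen with earlier results of these data known. Alternatives were other pseudocounts, filters, scalings, moderation and thresholds, the ratio of stage means, all 18 libraries in a single fit, the replicate number as a block, voom, and each library left out.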

Additional observations from a re-analysis of the deposited data

Results flagged for a closer look

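The effect of stage differed between Chalingzipisuan and the mean of both other varieties at 16 genes, by the test of that difference itself. Among them, the difference in log2 fold change was 3.46 for *Asa7G01379.1* (limma adjusted p = 0.00334), higher in all 3 enlarging bulbs of Chalingzipisuan and lower in all 6 enlarging bulbs of the other varieties. It was -1.997 for *Asa7G01587.1* (limma adjusted p = 0.0286), lower in all 3 enlarging bulbs of Chalingzipisuan. This gene had a log2 fold change of 2.43 in Ershuizao but also fell in Yuanjiangyangsuan (-0.45). The difference was 2.37 for *Asa8G04463.1* and 1.73 for *Asa3G02483.1* (limma adjusted p = 0.0475 for both), each higher in all 3 enlarging bulbs of Chalingzipisuan. In Ershuizao and Yuanjiangyangsuan, *Asa8G04463.1* had -0.44 and -0.92, whereas *Asa3G02483.1* was mixed, with -1.19 and 0.24. The difference at *Asa7G01379.1* stayed past the threshold with each Chalingzipisuan library left out in turn, and those at the other 3 genes did not.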

How the results depend on the processing

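No alternative that was applied to single genes turned the direction of a named gene that was called with all 6 libraries. Upregulated and downregulated genes numbered 739 and 1223 with no moderation, 20 and 49 at adjusted P, and 2151 and 3199 at P alone. With each library left out in turn they ranged from 835 to 3247 and from 1367 to 3507, and under all other settings they stayed within 1.5 times the counts reported. Downregulated genes made up 60.7% of calls, 57.9% with median-ratio scaling, 55.99% with quantile normalization and 51.9% without enlarging replicate 3. Without that library, the 6754 calls became 5270 at adjusted P and 5565 to 7203 with a further library left out, alternatives chosen after seeing the data. The median position of enlarging replicate 3 lay between 0.15 and 0.24 under its alternatives. Replicate numbers did not pair the bulbs (correlations of deviations of -0.28, 0.18 and 0.0084 for numbers 1, 2 and 3), and with the replicate block 1418 genes were upregulated and 1951 downregulated.

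The 11 positive and 5 negative differences from the other varieties became 3 and 0 with a pseudocount of 0.1, where limma gave 1216 negative differences at an unadjusted P under 0.05. There were 8 negative ones with a pseudocount of 1, 5 positive ones with median-ratio scaling, 10 negative ones with moderation without trend and robust estimation, 22 and 21 with no moderation, and 1462 and 1293 at unadjusted P. With each Chalingzipisuan library left out they ranged from 1 to 397 and from 1 to 106. With the replicate block limma called 0 in both directions, and 2487 genes had an unadjusted P under 0.05. The 18 genes listed at 0 before enlargement became 7 with an FPKM minimum of 1 in the other stage and 133 with any value above 0, and the 21 listed at 0 under enlarging growth became 5 and 152.

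Of 49 named genes with a fitted value, 27 were called. Between 0 and 3 of these calls were lost with other pseudocounts, scalings, the replicate block, all 18 libraries in a single fit or voom. With a library left out, 3 to 8 were lost. Other filters and moderation were not applied to the named genes one by one, and most of the 27 did not pass at adjusted P. With each library left out, log2 fold changes that were not called with all 6 ranged from -0.22 to 0.21 for *Asa2G00237.1*, from -0.55 to 1.21 for *Asa6G01479.1*, from -0.20 to 0.067 for *Asa2G00503.1*, from -2.21 to 0.073 for *Asa6G04395.1*, from -1.30 to 2.21 for *Asa0G03343.1*, from -1.65 to 1.34 for *Asa4G06295.1* and from -0.49 to 0.052 for *Asa4G02790.1*. The sign also turned for *Asa6G01479.1* with voom (-0.29), *Asa0G03343.1* with quantile normalization (0.082) and *Asa8G05110.1* with quantile normalization (-0.30). Leaving out enlarging replicate 3 moved the counts of calls by more than any scaling, filter or pseudocount tried. The cause of these changes was not tested.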
